A study of Mus musculus with 9 samples.

Results

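In B16F10 cells, a mouse melanoma line, 91 genes were lower in every library given interferon gamma (IFNγ) than in the media library of the same number. They were chosen from 55487 genes in the count table by measured values. A gene had to average at least 10 CPM (counts scaled to the library total) over the 3 media libraries, which 8978 genes did. Its log2 ratio of treated to media, each with 1 CPM added, had to be at most -0.5 in all 6 pairs of libraries with the same number. Mitf, Tbx2, Ndrg1, Rab3a and Fosb were left out by name. Of these 5, Mitf, Tbx2 and Ndrg1 met both thresholds, Rab3a averaged 9.43 CPM and Fosb 5.44 CPM in media. The share of the 8978 genes that the rule kept was 1.01%. In comparison, 182 genes were higher by at least 0.5 in all 6 pairs. Because the rule used every comparison with media, the ratios to media below are a description and carry no test.

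The series holds 3 groups of 3 libraries: cells in media, cells with IFNγ at 50 ng/mL, and cells with IFNγ at 50 ng/mL together with FK866 at 50 nM, all for 6 h. FK866 inhibits NAMPT, the rate-limiting enzyme that makes NAD from nicotinamide. The cells are 1 established line with no stated genetic change, all groups share the same serum-containing medium, and no group received FK866 alone. The labels name both mouse and human IFNγ and do not say which library received which. The titles carry the word Control with a number, 3, 4 or 5, in every group, also where IFNγ was given, and what the numbers stand for is not stated. Nothing says that libraries of a group came from separate cultures, and the p-values below therefore reflect library-to-library spread, which may be technical. Libraries held 15317003 to 18466972 counts. All 9 melanocyte markers examined averaged at least 10 CPM, with summed levels of 15700 to 19100 CPM per library. Of 8 leukocyte markers 5 had no count in any library, among them Ptprc, Itgam, Adgre1 and Nkg7, and the list summed to at most 12 CPM. Of 9 fibroblast, endothelial and keratinocyte markers 4 had no count (Cdh5, Kdr, Krt5 and Krt14). The latter list summed to 7.18 to 15.2 CPM in media, 3.41 to 8.95 CPM with IFNγ, then 3.92 to 10.5 CPM with IFNγ plus FK866, and its part in the results was not tested. In bulk RNA, fewer cells of a kind and less RNA per cell cannot be told apart.

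IFNγ binds a receptor that signals through JAK kinases, and the pathway acts on gamma-activated sites (GAS) in DNA to raise transcription of target genes. Among these targets is IRF1, which binds interferon-stimulated response elements (ISRE). Most direct targets are induced, and how IFNγ lowers transcripts is less well mapped. Melanocytic cells depend on MITF, a basic helix-loop-helix factor that binds E-box sequences, including the M-box core, and drives pigment and survival genes.

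Promoter windows (RefSeq, GRCm38.p6, 250 bases before to 50 bases after a gene's start) were matched by symbol for 76 of the 91 members, taking the window nearest to the annotated gene start. Motifs were searched on both strands (the E-box and M-box letters cannot match at the same place), and the same search was made for 7112 genes with a media mean of at least 10 CPM and for all 27025 genes of the promoter table. The GAS letters TTCNNNGAA were found in 1 member (1.32%), Tnfrsf19, against 6.54% of the expressed genes and 8.38% of all. The ISRE core, GAAA, any 2 bases and GAAA again, was found in 3 members (3.95%), Gjc3, Gpsm1 and Scube3, against 2.62% and 3.51%. The E-box CACGTG was found in 4 members (5.26%), Bhlhe41, Klf15, Sema6d and Tef, against 11.0% and 7.14%. The M-box core CATGTG was found in 7 members (9.21%), Chst12, Frmd4a, Fry, Gm20619, Rasgrp3, Sapcd2 and Tspan10, against 7.62% and 14.1%.

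The windows below are the 4 members that held interferon-type letters, shown because these are the elements through which IFNγ is known to act. Capitals mark TTCNNNGAA in Tnfrsf19 (chr14:61046806-61047105, minus strand) and the ISRE core or its reverse complement in Scube3 (chr17:28142059-28142358, plus strand), Gpsm1 (chr2:26315283-26315582, plus strand) and Gjc3 (chr5:137963049-137963348, minus strand). In Scube3 the match lies in a stretch made almost only of a and g, and in Gjc3 it reads on the opposite strand.
Tnfrsf19: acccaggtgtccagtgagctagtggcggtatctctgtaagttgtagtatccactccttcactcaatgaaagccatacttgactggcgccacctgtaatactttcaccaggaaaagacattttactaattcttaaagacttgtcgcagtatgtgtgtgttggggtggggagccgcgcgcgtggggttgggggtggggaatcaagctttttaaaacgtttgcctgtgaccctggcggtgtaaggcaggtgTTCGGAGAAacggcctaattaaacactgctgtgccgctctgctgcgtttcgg
Scube3: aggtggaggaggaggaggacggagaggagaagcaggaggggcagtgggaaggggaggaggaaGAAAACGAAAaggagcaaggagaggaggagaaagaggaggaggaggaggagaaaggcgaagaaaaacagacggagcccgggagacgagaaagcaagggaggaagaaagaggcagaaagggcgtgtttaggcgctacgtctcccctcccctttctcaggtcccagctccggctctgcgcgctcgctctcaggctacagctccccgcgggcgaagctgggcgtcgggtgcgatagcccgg
Gpsm1: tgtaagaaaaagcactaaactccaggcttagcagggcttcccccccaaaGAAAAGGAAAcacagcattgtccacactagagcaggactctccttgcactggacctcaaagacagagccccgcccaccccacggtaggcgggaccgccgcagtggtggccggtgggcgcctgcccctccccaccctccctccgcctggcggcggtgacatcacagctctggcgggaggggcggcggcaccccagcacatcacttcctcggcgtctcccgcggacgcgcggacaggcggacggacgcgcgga
Gjc3: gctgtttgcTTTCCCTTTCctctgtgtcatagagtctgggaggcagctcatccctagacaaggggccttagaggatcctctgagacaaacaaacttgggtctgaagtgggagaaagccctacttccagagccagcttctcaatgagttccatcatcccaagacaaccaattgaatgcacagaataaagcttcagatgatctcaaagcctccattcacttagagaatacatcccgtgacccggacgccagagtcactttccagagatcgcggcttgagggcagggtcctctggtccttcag

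The next windows show the E-box and M-box letters, which basic helix-loop-helix factors such as MITF and BHLHE41 can bind. Capitals mark CACGTG in Klf15 (chr6:90462326-90462625, plus strand), which held 3 copies, and in Bhlhe41 (chr6:145865371-145865670, minus strand), which held 1. They mark CATGTG or its reverse complement in Tspan10 (chr11:120442381-120442680, plus strand) and Rasgrp3 (chr17:75435655-75435954, plus strand).
Klf15: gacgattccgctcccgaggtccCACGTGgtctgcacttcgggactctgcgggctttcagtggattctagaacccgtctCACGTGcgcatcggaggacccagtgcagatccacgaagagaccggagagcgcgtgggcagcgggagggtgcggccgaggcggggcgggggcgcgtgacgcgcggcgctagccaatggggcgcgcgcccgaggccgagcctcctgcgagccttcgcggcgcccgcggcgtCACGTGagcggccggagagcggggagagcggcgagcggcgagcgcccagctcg
Bhlhe41: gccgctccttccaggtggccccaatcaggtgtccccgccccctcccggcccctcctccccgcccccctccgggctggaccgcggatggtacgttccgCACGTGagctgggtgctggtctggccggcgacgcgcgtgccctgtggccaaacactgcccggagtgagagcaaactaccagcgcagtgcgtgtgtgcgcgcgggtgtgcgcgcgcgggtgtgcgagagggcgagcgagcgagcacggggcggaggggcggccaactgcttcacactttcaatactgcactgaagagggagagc
Tspan10: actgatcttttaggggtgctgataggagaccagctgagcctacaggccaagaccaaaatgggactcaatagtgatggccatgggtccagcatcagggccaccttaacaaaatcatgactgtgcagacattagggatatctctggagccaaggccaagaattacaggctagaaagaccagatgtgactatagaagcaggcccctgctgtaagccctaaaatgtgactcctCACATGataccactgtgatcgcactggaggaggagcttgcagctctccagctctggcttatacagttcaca
Rasgrp3: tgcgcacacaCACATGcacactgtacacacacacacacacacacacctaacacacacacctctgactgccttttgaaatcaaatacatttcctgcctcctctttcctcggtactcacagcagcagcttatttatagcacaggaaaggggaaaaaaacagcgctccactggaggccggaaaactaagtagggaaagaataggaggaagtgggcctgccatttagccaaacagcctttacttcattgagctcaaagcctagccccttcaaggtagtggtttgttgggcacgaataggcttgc

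Other motifs were as follows. The AP-2 letters GCCNNNGGC were in 23 members (30.3%, against 26.5% of the expressed genes), the TEAD letters GGAATG in 12 (15.8%, against 11.0%) and TATAAA in 8 (10.5%, against 5.85%). The AP-1 letters TGACTCA or TGAGTCA were in 1 member, Shc4 (1.32%, against 3.02%), and the CRE letters TGACGTCA in 0 (against 3.66%). Median GC content of the windows was 65.3% in members and 62.0% in expressed genes. A match is a description of letters in a short window, and distal elements were not searched.

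**Figure D1:**
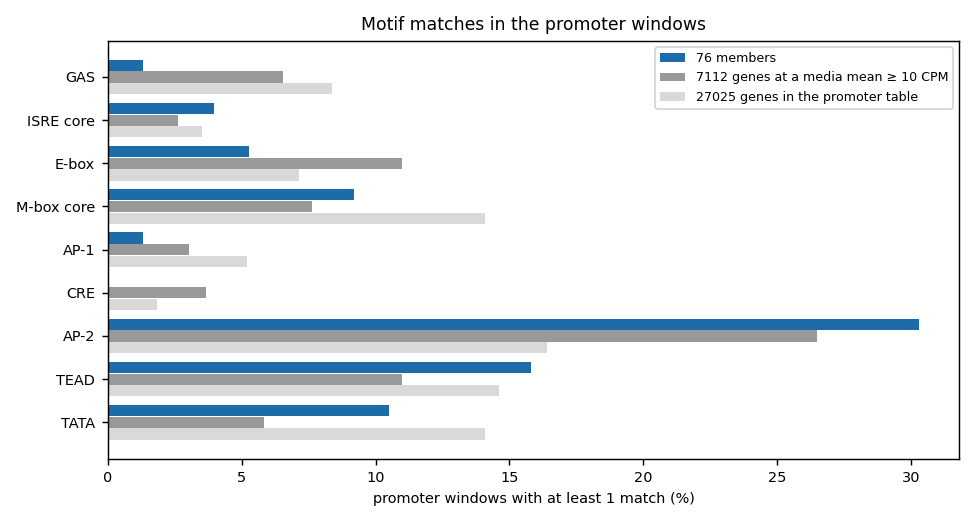
Share of promoter windows with at least 1 match (x axis, percent) for each motif (y axis), in 76 members, 7112 genes with a media mean of at least 10 CPM and all 27025 genes of the promoter table. GAS letters were in 1.32% of members and 6.54% of expressed genes, and AP-2 letters in 30.3% and 26.5%.

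Over the 91 members the mean of the 6 log2 ratios ran from -1.73 to -0.56, with a median of -0.83, which is 1.78-fold lower than media. The mean was at least 2-fold lower in 22 members. The median of the members in each pair lay between -0.90 and -0.78, while the median of all 8978 genes lay between -0.062 and -0.025. In any 1 pair 253 to 369 of the 8978 genes (2.82% to 4.11%) reached -0.5. At the edge of the rule, the highest of the 6 ratios was -0.501 in Cavin2 and Etl4 and -0.502 in Elk3. Just outside it were Bmyc (-0.499), Met and Eogt (both -0.497).

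The edgeR fit of IFNγ against media called 36 of the 91 members lower, where it called 0.499% of all 15237 genes fitted. With the control number as a replicate block it called all 91, against 6.14% of all genes. DESeq2 called 60. Without media 3, 4 or 5 the count was 22, 16 and 13, and without IFNγ 3, 4 or 5 it was 15, 18 and 22. For DESeq2 and these smaller fits the share of all genes called is not given here. The rule used this contrast, so the counts only describe how the rule relates to that test.

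**Figure D2:**
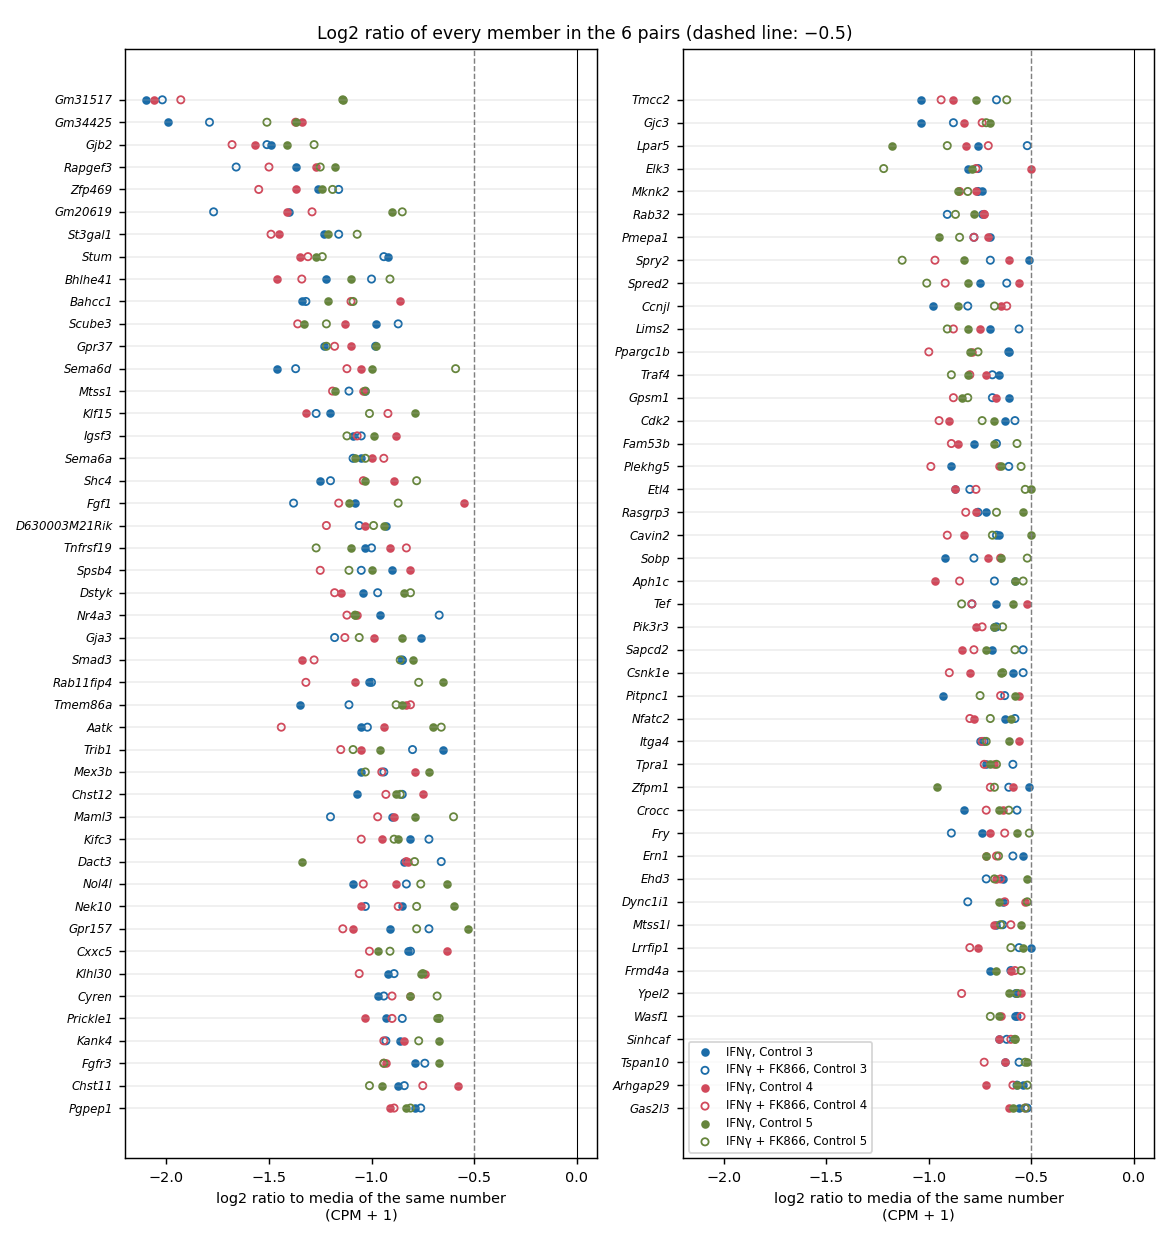
Log2 ratio of treated to media of the same number (x axis, on CPM with 1 added) for all 91 members (y axis, ordered by the mean), with filled points for IFNγ and open points for IFNγ plus FK866, coloured by control number. Every point lies at or left of the dashed line at -0.5, and the means run from -1.73 in Gm31517 to -0.56 in Gas2l3.

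The connexin genes Gjb2, Gja3 and Gjc3 were members. Connexins form channels that join the cytoplasm of neighbouring cells. Gjb2, which encodes connexin 26, had 164, 134 and 195 CPM in media with numbers 3, 4 and 5, then 57.8, 44.5 and 72.7 CPM with IFNγ, then 56.9, 41.0 and 79.7 CPM with IFNγ plus FK866. All 6 treated libraries were below all media libraries, at 2.81-fold lower on average. Gja3, another connexin gene, had 103, 91.4 and 54.2 CPM in media, 60.3, 45.6 and 29.6 CPM with IFNγ, then 44.7, 41.2 and 25.5 CPM with IFNγ plus FK866. Its groups overlapped because the media library of number 5 was below the IFNγ library of number 3. Gjc3 had 86.9, 99.2 and 117 CPM in media against 41.7 to 71.6 CPM in the treated libraries. Of 14 gap junction genes on a list that did not hold Gjc3, 5 were measured at 10 CPM or more. Among them Gjb2 and Gja3 were members (40.0%, against 1.01% of all 8978 genes). Gja1, Gjc1 and Panx1 had mean log2 ratios of -0.19, 0.04 and -0.13. Gjb2 (chromosome 14, 57098600 to 57104702) and Gja3 (57034460 to 57058100) are neighbours 40.5 kb apart on the minus strand, in GRCm38 with the GENCODE M21 annotation.

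Genes of cell surface contact were also members. Itga4 encodes the integrin alpha 4 chain and had 95.5, 146 and 167 CPM in media against 56.5, 98.7 and 109 CPM with IFNγ. Igsf3 encodes an immunoglobulin superfamily membrane protein and was 2.05-fold lower on average. Lims2, a focal adhesion adaptor, was 1.7-fold lower and had a higher media level in number 4 (56.5 CPM) than in numbers 3 and 5 (23.4 and 22.3 CPM). Cavin2, a coat protein of caveolae, and Kank4, of a family that links adhesions to the cytoskeleton, were 1.64-fold and 1.79-fold lower.

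The semaphorins Sema6a and Sema6d encode transmembrane ligands for plexin receptors, known from axon guidance. Sema6a had 39.1, 90.5 and 68.6 CPM in media, 18.3, 44.6 and 32.0 CPM with IFNγ, then 17.8, 46.7 and 33.1 CPM with IFNγ plus FK866. Its 6 log2 ratios were alike, from -1.09 to -0.94, although number 3 was the lowest in every group. Sema6d had 71.7, 21.3 and 21.6 CPM in media, 25.4, 9.76 and 10.3 CPM with IFNγ, then 27, 9.26 and 14.0 CPM with IFNγ plus FK866, so that number 3 was the highest in every group. Of 24 axon guidance ligands and receptors measured at 10 CPM or more, 2 were members (8.33%, against 1.01% of all 8978 genes). The list had a median mean log2 ratio of -0.09 (-0.04 over all 8978 genes).

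Of the growth factor pathway genes, the fibroblast growth factor ligand Fgf1 and receptor Fgfr3 were members. Fgfr3 had 40.1, 52.9 and 20.9 CPM in media against 22.7, 27.2 and 12.7 CPM with IFNγ. Fgf1, near the minimum level, had 16.2, 5.86 and 8.96 CPM in media against 7.13, 3.67 and 3.61 CPM with IFNγ. Shc4, an adaptor of receptor tyrosine kinases, went from 54.3 to 87.3 CPM in media to 25.9 to 42.4 CPM over the treated libraries, with no overlap. Spry2 and Spred2, feedback inhibitors of RAS and ERK signalling, were 1.73-fold and 1.71-fold lower. Of 8 measured ERK feedback genes these 2 were members, 4 were below 0 and 3 above 0 in all 6 pairs. Below 0 were also Dusp7 (mean log2 ratio -0.45) and Spred1 (-0.21), and above 0 were Dusp6, an ERK phosphatase (1.09), Dusp4 (0.38) and Phlda1 (0.21). Mknk2, a kinase downstream of ERK, and Pik3r3, a regulatory subunit of PI3-kinase, were 1.74-fold and 1.62-fold lower.

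Smad3, a transducer of TGF-beta signals, had 65.3, 74.8 and 49.6 CPM in media, 35.8, 29.0 and 28.0 CPM with IFNγ, then 35.8, 30.3 and 27 CPM with IFNγ plus FK866, with no overlap between treated and media libraries. Pmepa1, a TGF-beta-induced inhibitor of the pathway, was 1.73-fold lower and also without overlap. Of 11 measured TGF-beta and BMP response genes, Pmepa1 was the 1 member (9.09%, against 1.01% of all 8978 genes). In all 6 pairs 6 were below 0 and 2 above 0 (2079 and 1064 of the 8978 genes). Smad9 had a mean log2 ratio of -0.54, Smad7 -0.17 and Tgif1 0.65. Scube3, a secreted protein linked to TGF-beta and BMP signalling, had 132, 110 and 28.1 CPM in media, 66.6, 49.5 and 10.6 CPM with IFNγ, then 71.7, 42.0 and 11.5 CPM with IFNγ plus FK866. Number 5 was the lowest for Scube3 in each group, and its media level was under the treated levels of the other numbers.

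Several other signalling proteins were members. Tnfrsf19, a TNF receptor family member known as a WNT target, was 2.03-fold lower, and Traf4, a TNF receptor-associated adaptor, 1.7-fold. Dstyk, a dual-specificity kinase, had 202, 265 and 204 CPM in media against 97.9 to 119 CPM in the treated libraries. Trib1, a pseudokinase that steers proteins to degradation, was 1.93-fold lower. Dact3 and Prickle1, regulators of WNT and planar polarity signalling, were 1.84-fold and 1.80-fold lower, and the kinase gene Csnk1e 1.61-fold. Of 3 measured WNT response genes none was a member (1.01% of all 8978 genes were). Their mean log2 ratios were 0.94 in Axin2, 0.10 in Tcf7l2 and -0.37 in Znrf3. Of the listed WNT response genes under the minimum media level, Tcf7 (4.24 CPM in media) had the highest mean log2 ratio, 4.03. Lgr5 (1.21 CPM) had the lowest, -0.53. The receptor genes Gpr37, Gpr157 and Lpar5, with Gpsm1 and Tpra1, were 2.16-fold, 1.81-fold, 1.76-fold, 1.68-fold and 1.6-fold lower.

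Small GTPase regulators were led by Rapgef3, which encodes EPAC1, an exchange factor for RAP1 that cAMP activates directly. Rapgef3 had 56.9, 61.1 and 55.6 CPM in media, 21.4, 24.8 and 24.0 CPM with IFNγ, then 17.4, 21 and 22.8 CPM with IFNγ plus FK866. The 3 media libraries were close to each other, and the treated libraries lay between 17.4 and 24.8 CPM, at 2.59-fold lower on average. Its relative Rapgef4 had a mean log2 ratio of -0.24. Of 22 measured cAMP pathway genes Rapgef3 was the 1 member (4.55%, against 1.01% of all 8978 genes). In all 6 pairs 14 were below 0 and 2 above 0 (2079 and 1064 of the 8978 genes). After Rapgef3 the lowest mean log2 ratios were those of the kinase gene Sik1 (-0.79) and the phosphodiesterase gene Pde4a (-0.38). Of the measured genes, those above 0 were Pde4b (0.91) and the melanocortin receptor gene Mc1r (0.31). Listed genes under the minimum media level were not counted. Among these, Crem (8.55 CPM in media) had the highest mean log2 ratio of the whole list, 2.47. The lowest among them was -0.24, in Adcy5 (1.03 CPM). Rasgrp3, an exchange factor for RAS and RAP, had 142, 56.6 and 86.5 CPM in media against 85.7, 32.7 and 59.0 CPM with IFNγ. Plekhg5, an exchange factor, and Arhgap29, a GTPase-activating protein, were 1.65-fold and 1.5-fold lower. Rab32, a small GTPase of melanosome protein traffic, was 1.74-fold lower, and Rab11fip4, a RAB11 effector, 1.96-fold. Of 95 measured exchange factors and GTPase-activating proteins 4 were members (4.21%), against 1.01% of all 8978 genes, a difference that was not tested.

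Among cytoskeletal members, Mtss1 and Mtss1l, which encode related membrane-bending actin regulators, were 2.14-fold and 1.55-fold lower. Mtss1 had 32.6, 68.0 and 39.9 CPM in media against 15.4, 32.6 and 17.1 CPM with IFNγ. The other 10 cytoskeleton and membrane traffic members, among them Wasf1 of the WAVE actin complex and the motor protein genes Kifc3 and Dync1i1, had mean log2 ratios between -0.88 and -0.56. Gas2l3, a linker of actin and microtubules, was the least reduced of all members.

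By roles assigned after the members were known, 18 members were transcription and RNA regulators. The share of the 8978 genes with this role is not given here. Bhlhe41, a circadian repressor of the helix-loop-helix family, had 281, 302 and 286 CPM in media, 120, 109 and 133 CPM with IFNγ, then 140, 118 and 152 CPM with IFNγ plus FK866. Its media libraries were close and its treated libraries were all below them, at 2.25-fold lower. Klf15, a Krüppel-like factor, and Tef, a PAR bZIP factor of circadian output, were 2.13-fold and 1.62-fold lower. Nr4a3, an orphan nuclear receptor and immediate early gene, had 118, 140 and 133 CPM in media against 59.8 to 73.8 CPM in the treated libraries. Its relative Nr4a1 had a mean log2 ratio of -0.72 and missed the rule, since the highest of its 6 ratios was -0.36. Of 16 measured immediate early genes Nr4a3 was the 1 member (6.25%, against 1.01% of all 8978 genes). In all 6 pairs 7 were below 0 and 8 above 0 (2079 and 1064 of the 8978 genes). These counts leave out listed genes under the minimum media level. Among those, Atf3 (5.32 CPM in media) was above 0 in all 6 pairs, with a mean log2 ratio of 2.18. Fosb (-0.71), Klf4 (-0.70) and Egr1 (-0.42) were below 0 in all 6.

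Nfatc2, a calcineurin-dependent factor, had 111, 45.3 and 118 CPM in media, 71.2, 26 and 77.4 CPM with IFNγ, then 73.9, 25.6 and 72.1 CPM with IFNγ plus FK866. Number 4 was low in each group, so groups overlapped although each pair was lower. Bahcc1, a chromatin protein, was 2.23-fold lower, and Elk3, an ETS factor, 1.75-fold. Maml3, a coactivator of NOTCH, was 1.85-fold lower. None of the 6 measured NOTCH pathway genes listed was a member, where 1.01% of all 8978 genes were. Their mean log2 ratios ran from -0.56 in Jag1 to 1.68 in Notch1. Ppargc1b, a coactivator of mitochondrial genes, was 1.7-fold lower, Cxxc5 1.81-fold and Sinhcaf, a subunit of the SIN3 deacetylase complex, 1.53-fold. Zfp469, which the annotation used here types as a lincRNA, had 177, 123 and 130 CPM in media against 41.4 to 78.6 CPM in the treated libraries. Zfp469 lies on chromosome 8 from 122269569 to 122272650, 9.49 kb from Zfpm1 (FOG1, a cofactor of GATA factors), which was 1.6-fold lower. Of 211 Zfp genes measured, 2 were members (0.948%, against 1.01% of all 8978 genes).

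Enzymes that build glycans included St3gal1, a sialyltransferase that caps O-linked sugars. St3gal1 had 500, 381 and 399 CPM in media, 213, 138 and 172 CPM with IFNγ, then 224, 135 and 190 CPM with IFNγ plus FK866, without overlap and 2.41-fold lower. The chondroitin sulfotransferase genes Chst12 and Chst11 were 1.86-fold and 1.78-fold lower, and Chst11 had 25.1, 27 and 7.35 CPM in media. Ern1, which encodes the IRE1 sensor of the unfolded protein response, was 1.57-fold lower, and Aph1c, a gamma-secretase subunit, 1.62-fold.

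Members tied to MITF by the target list were Sema6a and Cdk2, 2 of 29 measured targets (6.90%, against 1.01% of all 8978 genes). The list had a median mean log2 ratio of -0.20, and 18 of its 29 genes were below 0 in all 6 pairs (2079 of the 8978 genes). Cdk2, a cell cycle kinase known to be driven by MITF in melanoma, had 430, 442 and 352 CPM in media against 210 to 287 CPM in the treated libraries. Cdk2 shares 34 exonic bases with the melanosome gene Pmel on the opposite strand, and Pmel itself had a mean log2 ratio of -0.12 at 3960 CPM in media. Tspan10, a tetraspanin gene, had 225, 169 and 174 CPM in media against 102 to 152 CPM. Lists with 0 members included the 12 measured melanocyte and neural crest transcription factors, of which Mitf and Tbx2 were left out by name. Others were 10 YAP and TEAD response genes, 144 solute carriers and 22 ion channel genes. Of all 8978 genes 1.01% were members. Corrected for exon length, Tspan10 (105 CPM per kb of exon), Gjb2 (68.3) and Cdk2 (65.6) had the highest media levels of the members, and Fry (1.48), Aatk (1.74) and Gpr37 (1.75) the lowest.

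**Figure D3:**
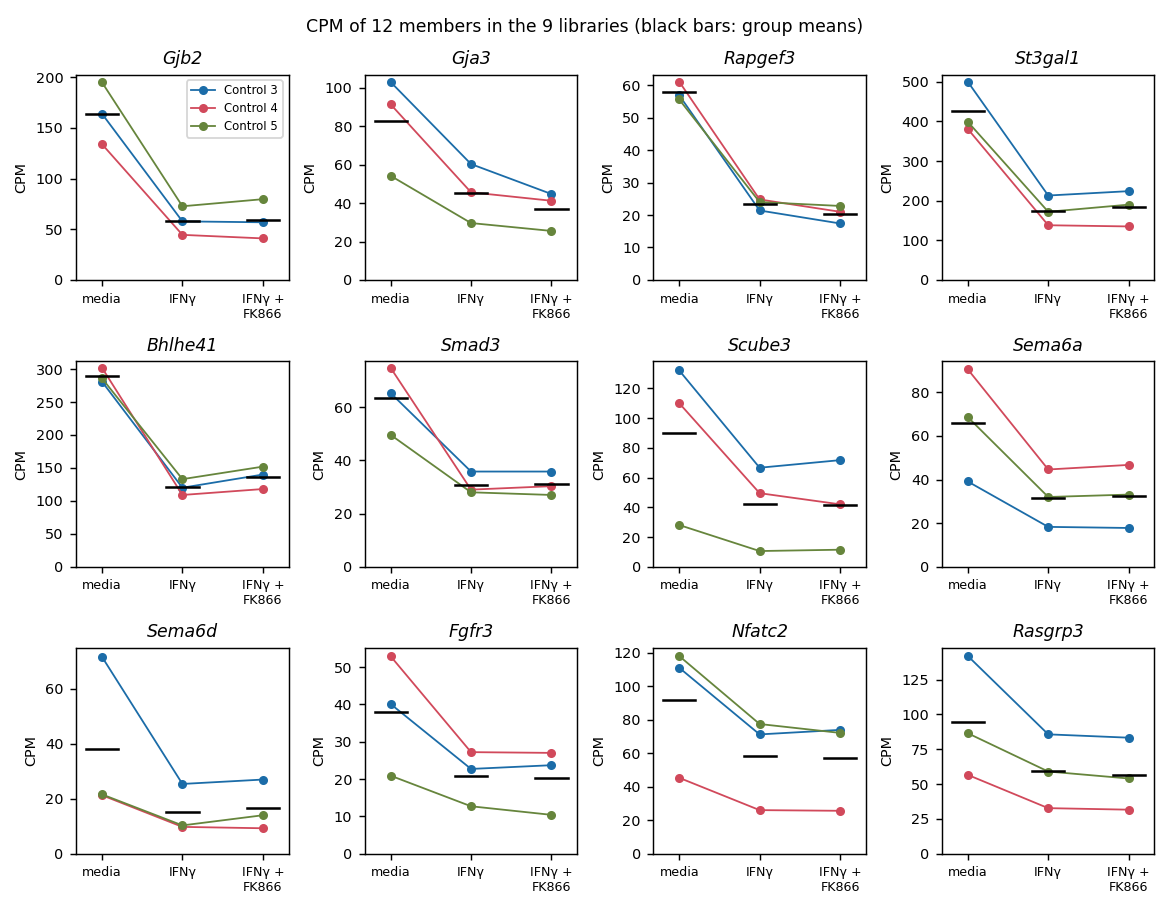
CPM (y axis, from 0, each panel with its own scale) of 12 members by treatment (x axis: media, IFNγ, IFNγ + FK866), with 1 line per control number and black bars at group means (n = 3). Every line drops from media to IFNγ, and in all groups number 5 lies lowest for Scube3, number 3 highest for Sema6d, and number 4 lowest for Nfatc2 and Rasgrp3.

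Of the lincRNAs, Gm31517 had 39.6, 39.1 and 7.41 CPM in media, 8.48, 8.64 and 2.82 CPM with IFNγ, then 8.99, 9.53 and 2.81 CPM with IFNγ plus FK866, at 3.32-fold lower on average. It lies on chromosome 14 from 15015189 to 15065231, 3.13 kb from Nek10, a kinase gene that was 1.82-fold lower. Gm34425, also a lincRNA, had 18, 32.7 and 19.9 CPM in media against 3.79 to 12.3 CPM in the treated libraries, and Gm20619 was 2.41-fold lower. Stum, named for a fly mechanosensory gene, had 19.1, 32.6 and 20.4 CPM in media against 7.84 to 12.5 CPM. Fam53b, Tmcc2, Klhl30 and Spsb4 were 1.67-fold, 1.77-fold, 1.81-fold and 2.03-fold lower.

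By annotation 87 of the 91 members were protein-coding and 4 were lincRNAs (95.6% protein-coding, against 97.5% of expressed genes). Protein-coding members spanned a median of 46.7 kb of genome (quartiles 17.0 and 96.7), and expressed protein-coding genes 27.4 kb (12.2 and 61.1). Their exonic lengths were closer, with medians of 5.38 and 5.01 kb, and they had 10 and 11 separate exon blocks. Members lay on 15 chromosomes. Their share of the expressed genes there ran from 0.668% on chromosome 3 to 2.34% on chromosome 18 (5 members), with 1.54% on chromosome 2 (11 members), the chromosome with the most. Besides the neighbours above, Tmcc2 and Dstyk lie 26.3 kb apart on chromosome 1. On chromosome 11, Aatk lies 186 kb from Bahcc1, and Bahcc1 150 kb from Tspan10. Lrrfip1 and Klhl30 on chromosome 1 lie 222 kb apart, and Dync1i1 and Gm20619 on chromosome 6 lie 221 kb apart. Of the expressed genes between Bahcc1 and Tspan10, Actg1, Nploc4 and Faap100 had mean log2 ratios of -0.08, -0.13 and -0.36. Between Aatk and Bahcc1, Cep131, Tepsin and Slc38a10 had -0.21, -0.08 and -0.12.

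Exons of 29 members overlap those of another gene, and without a stated strand setting reads of both cannot be told apart. Partners that averaged at least 10 CPM over the 9 libraries included, beside Pmel at Cdk2, Cdk17 at Elk3, Dnlz at Gpsm1 and Eid1 at Shc4, with mean log2 ratios of -0.17, 0.06 and -0.23. Another such partner, Tmem140, overlaps Cyren, a regulator of DNA end joining, over 2168 bases on the opposite strand. Tmem140 had a mean log2 ratio of 4.66 while Cyren was 1.81-fold lower, and the part of the overlap in the Cyren value was not tested.

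The rule compared libraries within a control number, and levels were also compared between numbers. These contrasts use the same 9 libraries as the rule, which asked for a minimum media level and for 6 ratios past the threshold, so the members' shares of calls are a description and not independent of the choice. Number 3 was tested against the mean of numbers 4 and 5, and number 4 against number 5, with group as a covariate in edgeR over all 15237 genes (9 libraries, 1 per number and group). Of the members, 60 were called between number 3 and the others at an adjusted p below 0.05, or 65.9%. The background was 38.5% of all genes and 49.8% of the genes with a media mean of at least 10 CPM. The calls split into 33 higher in number 3 (19.6% of all genes were called higher) and 27 lower (18.9%). Between numbers 4 and 5, 55 members were called (60.4%), against 31.1% of all genes and 41.4% of the expressed ones, with 24 higher in number 4 (15.9% of all genes) and 31 lower (15.2%). This split became 36 higher and 26 lower when libraries were scaled by their totals alone. At least 1 of the contrasts called 74 members (81.3%), against 67.6% of the expressed genes, and both called 41 (45.1%, against 23.6%).

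In media the highest of the 3 numbers was a median of 1.41-fold above the lowest in members and 1.26-fold in expressed genes, and the range reached 2-fold in 14 members (15.4%, against 4.66%). The lowest p-values of the contrast of number 3 with 4 and 5 were in Scube3 (log2 fold change 1.48, SE 0.0790, edgeR adjusted p = 1.54e-11) and Rasgrp3 (1.00, SE 0.0550, adjusted p = 2.81e-11), both higher in number 3 than in the mean of the others. Sema6a was lower in number 3 (-1.06, SE 0.0643, adjusted p = 1.10e-10 in edgeR), as was Itga4 (-0.76, SE 0.0549). Sema6d was higher (1.47, SE 0.0928). The call of Sema6a was lost without group as a covariate (adjusted p = 0.0666 in edgeR), where its fold change was again -1.06 on the log2 scale. Between numbers 4 and 5 the differences of Chst11 (2.07), Gm31517 (1.94) and Scube3 (1.91) on the log2 scale were higher in number 4, and those of Nfatc2 (-1.56) and Kank4 (-1.40) lower.

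The size of the reduction also varied between numbers. For each member the mean log2 ratio of both treated libraries was compared between numbers, and the gap from the strongest to the weakest number had a median of 0.25. The strongest reduction was in number 4 for 42 members, in number 3 for 32 and in number 5 for 17. In 69 members all 6 treated libraries were below all 3 media libraries, as in 5.36% of the 8978 genes, a contrast that the rule used. In the other 22 members the ranges overlapped, among them Scube3, Sema6d, Nfatc2, Rasgrp3, Kank4 and Fgfr3.

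**Figure D4:**
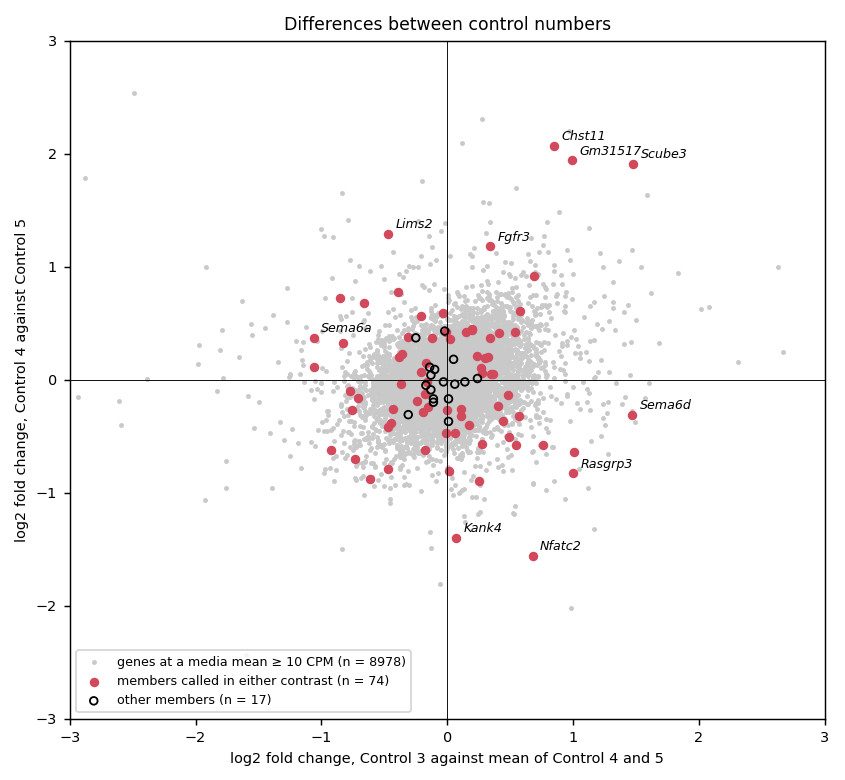
Log2 fold change between control numbers from the edgeR fit with group as a covariate: number 3 against the mean of 4 and 5 (x axis) and number 4 against 5 (y axis), for 8978 expressed genes (grey), 74 members called in at least 1 contrast (red) and 17 other members (open). Scube3, Chst11 and Gm31517 lie at the top, Nfatc2 and Kank4 at the bottom, and 16 grey genes fall outside the axes.

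Whether the NAMPT inhibitor altered the treated levels of these genes was tested by setting the FK866 libraries against those with IFNγ alone. The rule read both sets of libraries and kept only genes low in both, so a gene whose reduction FK866 reversed could not be a member, and a lack of calls among members is partly set by the choice. No member was called (0 of 91 in edgeR, 0.0% of 15237 genes called), and none had an unadjusted p below 0.05 (0.578% of all genes did). That fit had no term for the control number, so differences between numbers stayed in its error. DESeq2 and limma-voom also called 0 members and 0.0% of genes, with 0 members reaching 0.05 unadjusted. Adding the replicate block again gave 0 called members (0.0197% of genes), and 7 members reached 0.05 unadjusted (7.69%, against 3.76% of all genes). These 7 were Gja3, Tef, Rapgef3, Elk3, Spry2, Spsb4 and Itga4. All were lower with FK866, at log2 fold changes from -0.34 (Spry2) to -0.13 (Itga4). When genes were chosen by the IFNγ pairs alone, an alternative added after seeing the data, 0 of 129 were called in edgeR without the block and 0 with it, and 0 and 9 reached 0.05 unadjusted. That choice still read the IFNγ libraries of the comparison. Log2 fold changes of the members with the block ran from -0.34 to 0.23 with a median of -0.05 (-0.01 over all genes). The block lowered the median standard error of the members from 0.203 to 0.0852. The 95% intervals with the block, not adjusted for the number of genes, lay within 0.5 log2 units on either side of 0 for 83 members, and the extreme bounds were -0.72 and 0.61.

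By number, 33, 61 and 43 of the 91 members (36.3%, 67.0% and 47.3%) were lower with FK866 than without it in numbers 3, 4 and 5, against 41.6%, 47.7% and 47.2% of expressed genes. In all 3 numbers 12 members were lower (13.2%, against 11.0% of expressed genes) and 11 were higher (12.1%, against 17.7%). The members with the lowest p without the block were Rapgef3 (log2 fold change -0.24, SE 0.122), Tef (-0.25, SE 0.139), Ehd3 (-0.12, SE 0.0863), Spred2 (-0.17, SE 0.139) and Elk3 (-0.23, SE 0.188), each with an edgeR adjusted p of 1.00. With the block the lowest unadjusted p was in Gja3, at -0.31 on the log2 scale (edgeR adjusted p = 0.987). Gja3 was lower with FK866 in numbers 3, 4 and 5, by log2 differences of -0.42, -0.14 and -0.21. Bhlhe41 was higher in the 3 numbers (0.22, 0.12 and 0.19), and with the block its unadjusted p was 0.078 in edgeR (adjusted p = 0.987).

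**Figure D5:**
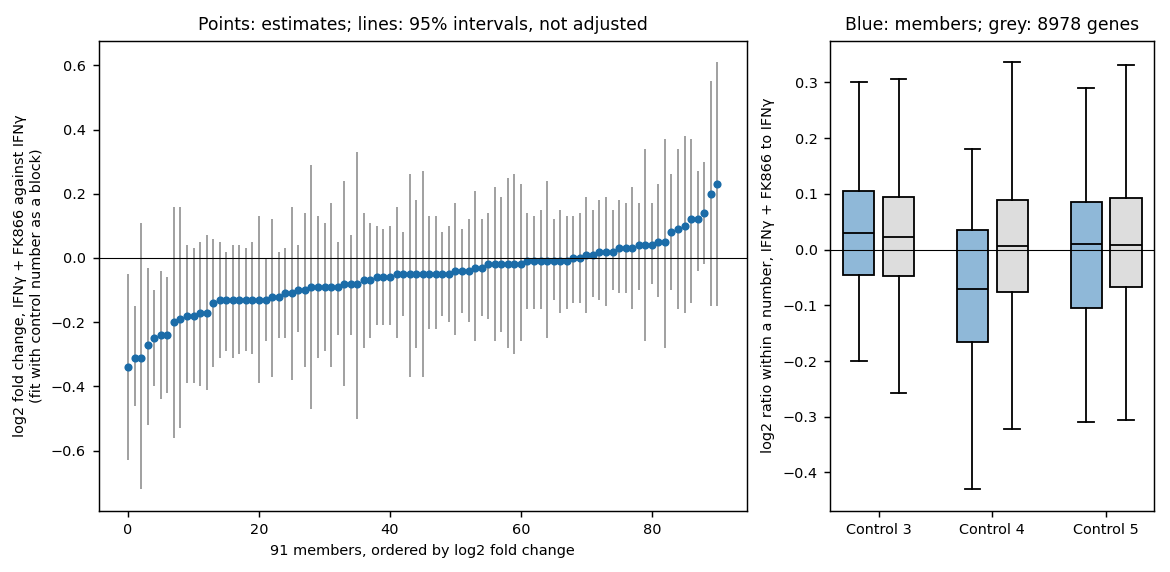
Left: log2 fold change of IFNγ plus FK866 against IFNγ (y axis) for the 91 members in order (x axis), from the fit with control number as a block, with unadjusted 95% intervals. Right: log2 ratio within each number (y axis) in members (blue) and 8978 expressed genes (grey); boxes show quartiles with the median as a line, whiskers reach to 1.5 box lengths, and points beyond are not drawn. No member was called, and estimates lie between -0.34 and 0.23.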

How the data were processed

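Read counts per gene, not normalised, were deposited by the authors in 1 table with a column for each library, and the values are whole numbers. No value belongs to an individual cell, so the libraries were analysed as bulk RNA, while the series text mentions the 10x platform. DESeq2 1.30.1, featureCounts 1.6.3, STAR 2.7.6a and cutadapt 1.16, with the builds GRCm38 and mm10, are listed without role or order per the submitters' processing notes. Not given in the sources used here are the strand setting and annotation release.

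Symbols were matched for 55141 of 55487 genes. Fits used R 4.3.3 and edgeR 4.0.16 (TMM, filterByExpr, quasi-likelihood test, Benjamini-Hochberg adjustment over 15237 genes), checked on simulated data. For the FK866 contrast the simulated counts held no differences between control numbers, unlike the real libraries. Standard errors came from the F statistic. DESeq2 1.42.0 and limma 3.58.1 served as alternatives, with other scalings, no filter and each library left out. Same-number libraries pair, from the titles together with the data. Deviations from group means correlated by 0.555 to 0.728 over 9 same-number pairs and by -0.477 to -0.112 over 18 others. The deviations of the 3 libraries of a group sum to 0, so positive same-number values force the others below 0 on average. Total counts per library limit the precision of members near 10 CPM most.

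Members, lists and tests were chosen with earlier results of these data known, and roles were assigned after the members were known. Genes named are the 20 with the lowest mean ratio (Gm and Riken names aside), members of the lists, those at the threshold edge and those with the lowest p per contrast, and further members, Gm genes among them, were named after their values were seen.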

Additional observations from a re-analysis of the deposited data

How the results depend on the processing

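The number of members, 91, became 60 with a pseudocount of 5 CPM, which shrinks the ratios of low genes, and those 60 were all among the 91. It was 95 with a pseudocount of 0.5, 103 and 75 with a media minimum of 5 and 20 CPM, 82 with TMM-normalised CPM (79 shared) and 79 with DESeq2 size factors (75 shared). IFNγ pairs alone gave 129 and IFNγ plus FK866 pairs alone 117, and leaving out number 3, 4 or 5 gave 109 to 132, with 89 to 90 of the 91 kept. No member was called for FK866 under any alternative run. Leaving out 1 library gave 47 to 58 calls for number 3 against 4 and 5, and 46 to 60 for 4 against 5. Without group as a covariate these counts were 5 and 6. That setting leaves the difference from media in the error, and its part in the lower counts was not tested. For IFNγ against media, 36 members called lower became 60 with DESeq2 and 91 with the replicate block, and 13 to 37 without 1 library. Shares of all genes are not given here for fits with 1 library left out or without group, nor for DESeq2 in this contrast. The fits with 1 library left out assume that the remaining libraries of that group vary like the others.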
